A study of Mus musculus with 4 samples.

Results

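The genes described here are 39 mouse genes of glycolysis and of the cellular response to low oxygen, out of 37310 genes that have counts in the deposited tables. The rule names them by role and uses no measured value, although the list was drawn up with earlier results of these data known. Of the 39, 7 sense oxygen or relay the signal, 2 bring glucose into the cell, 17 act between glucose and pyruvate, 5 handle lactate and pyruvate, and 8 are other targets of the hypoxia-inducible factors. RNA was sequenced from bone marrow of wild type C57Bl/6 mice at 2 ages, called mature at 3 months and elderly at 24 months, with 2 libraries per age. The study's methods describe male mice and cells sorted as negative for lineage markers and positive for the leptin receptor (Lin-LEPR+ cells, a stromal population that holds skeletal stem and progenitor cells), whereas the sample labels give unsorted marrow as the source. The methods give RNA pooled from 3 or 4 mice in a group, whereas each sample title names a single mouse. Whether a library is 1 mouse or a pool, and whether the 2 libraries of an age come from different animals, is not given in the sources used here, so p-values measure only the spread between these libraries, which may be technical. The question was what differs in these cells between the ages.

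The libraries held between 10472117 and 15650518 counts. The stromal identity in the methods was checked against 11 marker genes of LEPR+ cells, all detected, which together took 37947 and 38809 CPM (counts relative to the library total, with TMM scaling) in mature libraries and 27060 and 34869 CPM in elderly libraries. Markers of blood cells were present as well. The 15 neutrophil genes summed to 2251 and 1281 CPM in mature and 4855 and 4659 CPM in elderly libraries. The 15 annotated of 16 erythroid genes summed to 446 and 194 CPM and to 1524 and 1352 CPM. Of these, 14 neutrophil and 13 erythroid genes had enough counts to be tested. In RNA from many cells, fewer cells of a type and less RNA per cell cannot be told apart.

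Cells split glucose to pyruvate by glycolysis and, when oxygen is short, turn pyruvate into lactate and export it. The switch is driven by the hypoxia-inducible factors HIF-1α (Hif1a) and HIF-2α (Epas1), which are hydroxylated by the prolyl hydroxylases of the Egln family while oxygen is present, bound by the VHL protein and degraded. When oxygen falls they pair with ARNT and bind short elements in the promoters of glucose transporters, glycolytic enzymes and other target genes, and the bone marrow is known as a tissue with low oxygen.

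How much of each gene the counts cover had to be settled first, because the deposited counts depend on which bases 2 transcripts share. All 25621 annotated transcripts without a base of their own had 0 counts, so a count needs exonic bases that belong to a single transcript. Such bases are called countable bases here. Reads can reach past them: 1 Arnt transcript with 6 countable bases had 7 and 8 counts in mature and 5 and 10 in elderly libraries. Levels per kb of countable bases can therefore be too high where these stretches are short, as in Pkm2 with 369 countable bases. Countable bases made up a median of 58.6% of the longest transcript among the 39 genes, against 77.1% among all protein-coding genes tested. For 10 genes, among them Epas1, Egln1, Egln3, Pgam1, Slc16a1 and Adm, the countable bases were at least as many as the longest transcript has, and for 15 genes they made up less than 50%. In 12 genes more than 50% of the counts came from transcripts annotated as retaining an intron. This was 97.6% for Gapdh and 97.8% for Pfkp, while the only gene with no count on a coding transcript was Ankrd37. For these genes the counts describe mainly unspliced or partly spliced RNA, and their levels were not read as levels of the messenger RNA.

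**Figure D1:**
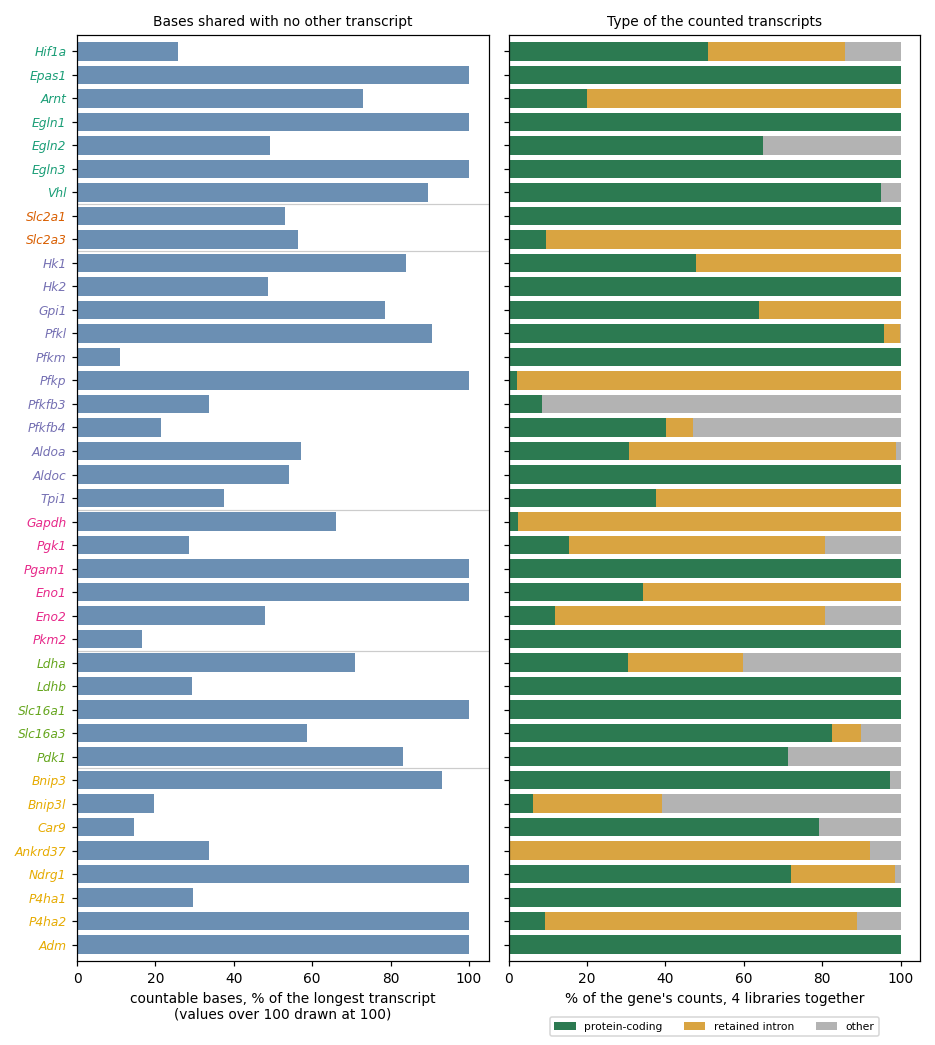
Countable bases of the 39 genes as a percentage of the longest transcript (left) and the share of their counts, over the 4 libraries together, on protein-coding, retained-intron and other transcripts (right); gene names are coloured by role. For Gapdh the coding transcripts hold 2.38% of the counts, whereas for Adm, Slc16a1 and Epas1 they hold all of them.

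Epas1 had by far the highest level of the 39 genes per countable base. Per kb of countable bases it reached 1160 and 917 CPM in mature and 979.9 and 1240 CPM in elderly libraries, rank 38 of the 22214 genes tested. The next levels per kb belonged to Pkm2, Adm, Gapdh, Gpi1 and Ldha, with means over the 4 libraries of 66.9, 58.9, 46.9, 43.0 and 39.1 CPM per kb, and the ranges of neighbours in this order overlapped over the libraries. Only Epas1 stood clear of the others in every library. That order is one of counted bases and not of messenger RNA. Coding transcripts held 2.38% of the Gapdh counts and 30.3% of the Ldha counts, but all of the Epas1 counts. Hif1a, the other factor, had a mean of 5.23 CPM per kb, so that the level of Epas1 per countable base was 205 times higher. That ratio rests on 25.7% of the longest Hif1a transcript, and 50.97% of the Hif1a counts were on coding transcripts. Aldoc was lowest, at 0.130 CPM per kb, with no count in 1 mature library.

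**Figure D2:**
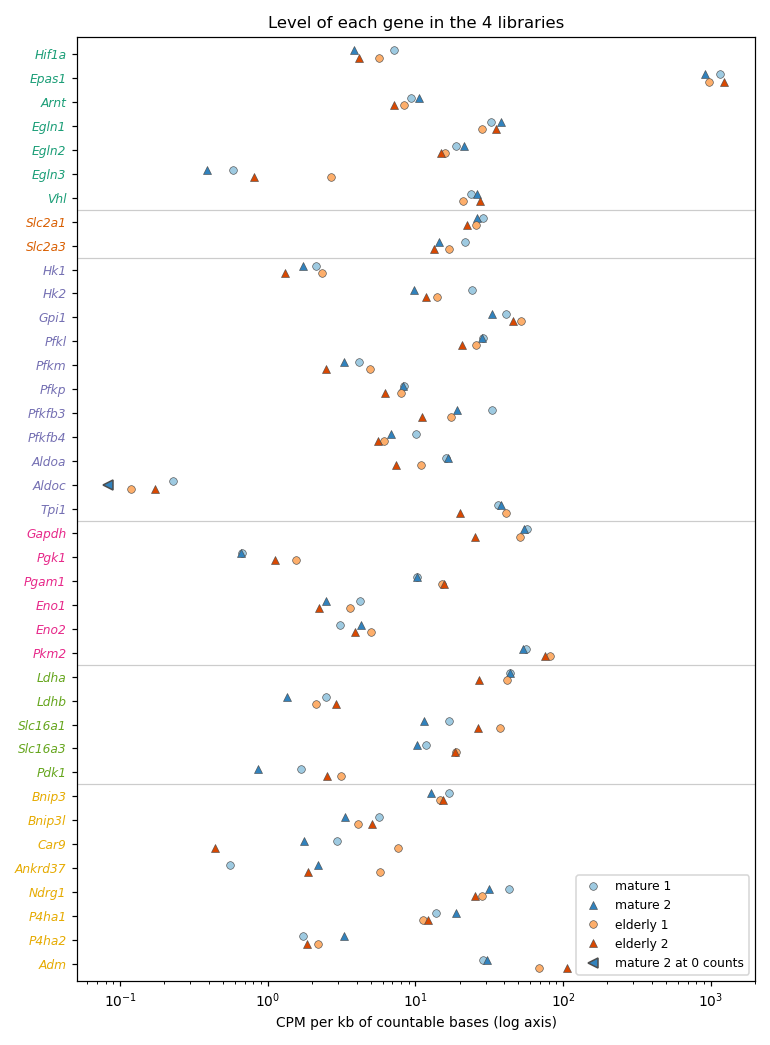
Level of each of the 39 genes in the 4 libraries, in CPM per kb of countable bases on a log axis, ordered by role; circles and triangles are the replicates of each age. Epas1 lies near 1000 in every library, while the other genes reach at most 107.

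Between the ages, 2 of the 39 genes differed past the threshold, and both were higher in elderly libraries: Adm, a secreted peptide that widens vessels, was 2.95-fold higher and Slc16a1, a lactate transporter, was 2.25-fold higher. No gene was called lower. The test was edgeR's quasi-likelihood test over all 22214 genes tested, with a call at a Benjamini-Hochberg adjusted p under 0.05. All 39 passed the filter on low counts. The test called 5.13% of the 39 genes, beside 2.36% of all genes. In the direction of higher levels in elderly libraries the share of all genes called was 1.94%, and in the other direction 0.423%. At an unadjusted p under 0.05 there were 7 higher and 3 lower genes among the 39, or 25.6%, beside 10.9% of all genes. Both elderly libraries lay above both mature ones for 9 of the 39 genes, beside 22.0% of all genes, and below them for 12, beside 18.9%. Together this was 53.8% of the 39 genes and 40.9% of all genes. The median log2 fold change of the 39 genes was -0.09, with 17 values above 0 and 22 below, and that of all genes was -0.01. Leaving out either elderly library removed every call, those of all other genes included, so these fits cannot judge the 2 calls on their own. Neither Adm nor Slc16a1 passed the adjusted threshold in edgeR's exact test with the dispersion set to 0.2, the test of the study's methods. The adjusted p-values were 0.440 for Adm and 0.812 for Slc16a1 by edgeR. The study names no adjustment for its own gene list, and without adjustment 2 of the 39 genes passed in this exact test.

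**Figure D3:**
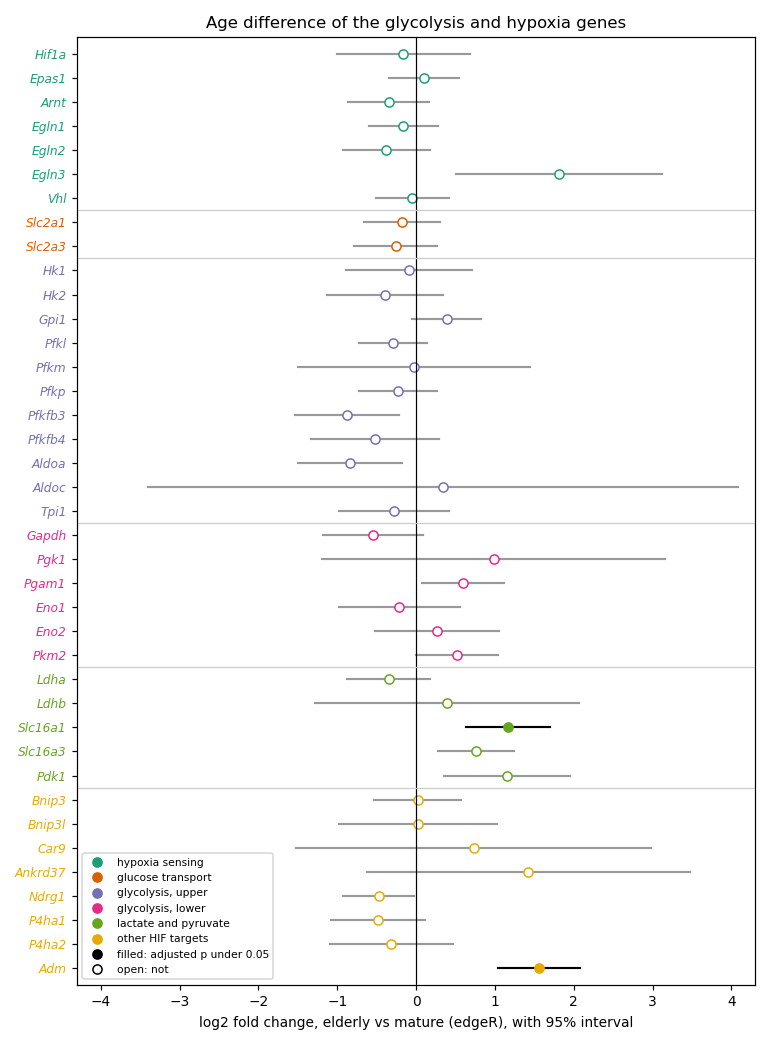
Log2 fold change of each of the 39 genes, elderly against mature, with its 95% interval from edgeR; filled points passed an adjusted p of 0.05. Adm at 1.56 and Slc16a1 at 1.17 are filled, and most of the other intervals cross 0.

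By step of the pathway, the signs of the differences were as follows, without a test of the steps against each other. Of the 11 genes of the upper steps, which carry glucose to the triose phosphates, 9 had a lower fitted level in elderly libraries, with a median log2 fold change of -0.28 and none called. Of the 6 genes of the lower steps 4 had a higher one, with a median of 0.39 and none called, and of the 5 genes of lactate and pyruvate handling 4 did, with a median of 0.76 and 1 called. The genes were also split by what was counted, over all steps together and not within each step. The 23 genes with more than 50% of their counts on coding transcripts had a median of 0.10, with 2 called, and the 16 others had a median of -0.27, with 0 called by edgeR and 2 at an unadjusted p under 0.05. The same split of all protein-coding genes gave medians of 0.04 over 12467 genes and -0.14 over 3429 genes, with 3.68% and 0.642% called. The part of the transcript type in the difference between the steps was not tested.

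Among the oxygen sensors, none was called, and 1 had an unadjusted p under 0.05. Epas1 was counted at 6159 and 4867 CPM in mature and 5202 and 6583 CPM in elderly libraries. The ages overlapped, and the log2 fold change was 0.10 (SE 0.20, 95% interval -0.35 to 0.54, adjusted p = 0.933 by edgeR). Hif1a was counted at 8.74 and 4.65 CPM and at 6.94 and 5.08 CPM, with a log2 fold change of -0.16 (SE 0.39, interval -1.001 to 0.68) that turned to 0.23 when only coding transcripts were summed. Arnt, the partner of both factors, had a log2 fold change of -0.35, with 80.0% of its counts on intron-retaining transcripts. Vhl, which marks hydroxylated HIF for degradation, stood at 59.5 and 65.7 CPM in mature and 52.6 and 68.6 CPM in elderly libraries, with a log2 fold change of -0.05 (SE 0.21, interval -0.51 to 0.42) that became 0.0057 with scaling by library size alone.

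The Egln genes encode the oxygen-dependent hydroxylases, and Egln3 is itself a HIF target. Egln3 had 18 and 12 counts in mature and 79 and 33 counts in elderly libraries, or 1.56 and 1.03 CPM against 7.12 and 2.15 CPM. The elderly libraries were both higher but lay far apart. The log2 fold change was 1.81 (SE 0.60), with an adjusted p of 0.203 by edgeR, and it was 0.75 without elderly replicate 1 and 2.45 without elderly replicate 2. Egln1 and Egln2 had log2 fold changes of -0.16 and -0.38, and neither had an unadjusted p under 0.05.

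The glucose transporters did not differ detectably. Slc2a1, the widely expressed transporter GLUT1, was counted at 39.7 and 36.5 CPM in mature and 35.9 and 31.3 CPM in elderly libraries. Both elderly values were the lower ones, by little, and the log2 fold change was -0.18 (SE 0.22, interval -0.67 to 0.30). Slc2a3, the high-affinity transporter GLUT3, had a log2 fold change of -0.26 (interval -0.78 to 0.27), with 90.4% of its counts on intron-retaining transcripts.

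In the upper steps of glycolysis, Pfkfb3 and Aldoa had the lowest values, both mostly from transcripts that do not code for the enzyme. Pfkfb3, which makes the activator of phosphofructokinase, was counted at 56.8 and 32.8 CPM in mature and 29.8 and 19.1 CPM in elderly libraries. The ages were apart by a small gap. The log2 fold change was -0.88 (SE 0.30, unadjusted p = 0.0139, adjusted p = 0.236 by edgeR), and 8.37% of the counts were on coding transcripts, which alone gave -0.48. The value ran from -0.43 without mature replicate 1 (adjusted p = 0.837) and -0.58 without elderly replicate 2 (0.723) to -1.25 without mature replicate 2 (adjusted p = 0.0489, all by edgeR). Aldoa, the aldolase that splits fructose bisphosphate, stood at 14.3 and 14.7 CPM and at 9.65 and 6.57 CPM. Both elderly libraries were clearly lower, with a log2 fold change of -0.84 (SE 0.30, unadjusted p = 0.0172, adjusted p = 0.262 by edgeR), and 68.0% of its counts came from intron-retaining transcripts.

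Gpi1, the isomerase of the second step, went the other way. Its values were 104 and 83.4 CPM in mature and 130 and 115 CPM in elderly libraries, with a log2 fold change of 0.39 (SE 0.20, interval -0.05 to 0.82, adjusted p = 0.537 by edgeR). Its coding transcript alone had 711 and 570 counts in mature and 936 and 1221 counts in elderly libraries, with a log2 fold change of 0.62 (adjusted p = 0.378 by edgeR, in a fit of single transcripts that called 1.66% of 42413), and its long intron-retaining transcript had one of 0.13. In edgeR's test of transcript use, the share of a transcript within its gene passed the threshold for 0 of 28422 transcripts, with 808 at an unadjusted p under 0.05. The other genes of these steps were the hexokinases Hk1 and Hk2, which trap glucose in the cell, the phosphofructokinases Pfkl, Pfkm and Pfkp, the regulator Pfkfb4, the aldolase Aldoc and the triose phosphate isomerase Tpi1. Their log2 fold changes ran from -0.52 for Pfkfb4 to 0.35 for Aldoc, and none had an unadjusted p under 0.05.

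In the lower steps, which harvest ATP, Pgam1 and Pkm2 had higher values in both elderly libraries without reaching the threshold. Pgam1, the phosphoglycerate mutase, was counted at 18.9 and 18.7 CPM in mature and 27.9 and 28.8 CPM in elderly libraries. Replicates were close and the ages apart, with a log2 fold change of 0.59 (SE 0.24, unadjusted p = 0.0287, adjusted p = 0.344 by edgeR). Of its 40-base windows, 93% occur elsewhere in the genome, so its counts depend on how reads with several matches were treated, which is not given in the sources used here. Gapdh, the dehydrogenase often used as a reference gene, had 53.4 and 50.9 CPM against 47.8 and 23.9 CPM, a log2 fold change of -0.54 (SE 0.29, interval -1.18 to 0.09) on transcripts that retain introns. Pgk1 had 4 and 4 counts in mature and 9 and 9 in elderly libraries over 520 countable bases, and a log2 fold change of 0.99 with an interval of -1.19 to 3.16. The enolases Eno1 and Eno2 had log2 fold changes of -0.21 and 0.26, with 65.8% and 68.9% of their counts on intron-retaining transcripts.

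Pkm2 is the gene of muscle-type pyruvate kinase, which makes pyruvate and ATP in the last step. Its transcripts carry 1 of 2 exons that exclude each other: the M1 exon gives the constitutively active enzyme of muscle and brain, and the M2 exon the regulated form of proliferating cells. Both exons are exon 9 of their transcript and 167 bases long, and as they are the only large unshared stretches of the gene, the 369 countable bases read almost nothing but this choice. The pair is shown because it carries the counts of the gene. They lie on the forward strand of mm9 (NCBI Build 37) at chr9:59522836-59523002 and chr9:59523375-59523541, and capitals mark the 64 positions at which they differ.
M1 exon: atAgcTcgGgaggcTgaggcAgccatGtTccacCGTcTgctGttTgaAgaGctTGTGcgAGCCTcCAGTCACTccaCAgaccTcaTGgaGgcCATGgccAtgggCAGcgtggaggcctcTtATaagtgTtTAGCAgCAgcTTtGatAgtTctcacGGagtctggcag
M2 exon: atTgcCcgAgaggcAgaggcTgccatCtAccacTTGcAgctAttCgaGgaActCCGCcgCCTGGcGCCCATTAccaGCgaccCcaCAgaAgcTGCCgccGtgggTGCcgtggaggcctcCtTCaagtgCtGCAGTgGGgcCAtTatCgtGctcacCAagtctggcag
Identity between the exons was 61.7%. The M2 transcript had 148 and 143 counts in mature and 223 and 306 counts in elderly libraries, and the M1 transcript 92 and 87 against 113 and 123. In every library the M2 exon was read more often than the M1 exon. Its share of the counts was 61.7% (95% Wilson interval 55.4 to 67.6) and 62.2% (55.8 to 68.2) in mature and 66.4% (61.2 to 71.2) and 71.3% (66.9 to 75.4) in elderly libraries, intervals that cover counting error only. Both elderly shares were above both mature ones, with group means of 61.9% ± 0.359 and 68.9% ± 3.51 (SD, n = 2). With 2 libraries per age an exact permutation test cannot go below p = 0.333, and edgeR's test of transcript use gave an adjusted p of 1 (unadjusted p = 0.661 for M2 and 0.460 for M1). Of the 128 40-base windows of each exon's transcript, 53 of the M2 windows and 0 of the M1 windows occur elsewhere in the genome, and the part of reads with several matches in the M2 share was not tested. The whole gene stood at 20.8 and 19.8 CPM in mature and 30.3 and 27.9 CPM in elderly libraries, a log2 fold change of 0.52 (SE 0.24, unadjusted p = 0.0492, adjusted p = 0.452 by edgeR).

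**Figure D4:**
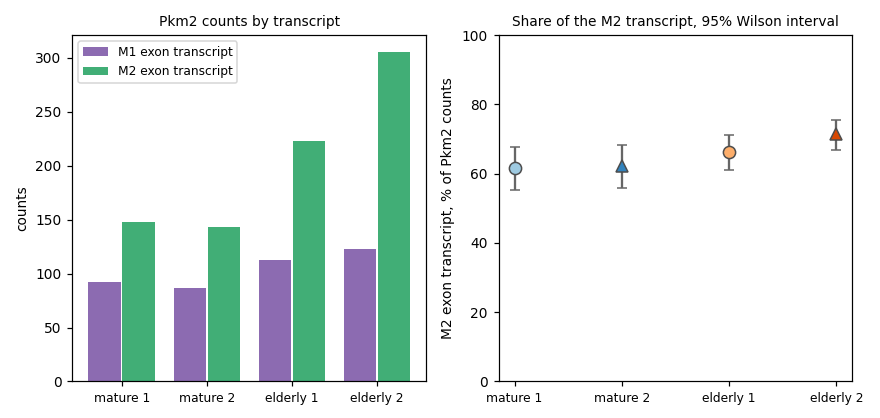
Counts of the M1 and M2 transcripts of Pkm2 in each library (left) and the percentage of counts on the M2 transcript with its 95% Wilson interval (right). The M2 share was 61.7% and 62.2% in mature and 66.4% and 71.3% in elderly libraries, and neighbouring intervals overlap.

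Lactate and pyruvate handling held 1 of the 2 called genes and 3 of the 7 higher genes at an unadjusted p under 0.05. The promoters of the 3 genes that follow are shown because they hold the letters of the hypoxia response element, the site that HIF and ARNT bind. Each is the 250 bases before the RefSeq start on the forward strand of GRCm38.p6, and capitals mark ACGTG or GCGTG on either strand (read as CACGT or CACGC from the other, with CACGTG holding both and being an E-box as well).
Slc16a1, chr3:104638414-104638663: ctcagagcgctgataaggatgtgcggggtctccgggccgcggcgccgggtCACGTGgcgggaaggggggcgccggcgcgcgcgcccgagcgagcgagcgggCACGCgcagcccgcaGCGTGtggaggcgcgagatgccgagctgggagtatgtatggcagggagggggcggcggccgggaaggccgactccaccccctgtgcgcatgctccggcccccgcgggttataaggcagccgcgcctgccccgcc
Slc16a3, chr11:120948817-120949066: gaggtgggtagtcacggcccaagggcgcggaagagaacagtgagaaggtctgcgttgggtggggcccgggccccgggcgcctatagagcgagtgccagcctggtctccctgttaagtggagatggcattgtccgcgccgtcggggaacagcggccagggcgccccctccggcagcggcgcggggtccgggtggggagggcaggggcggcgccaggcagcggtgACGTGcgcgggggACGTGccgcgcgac
Adm, chr7:110627407-110627656: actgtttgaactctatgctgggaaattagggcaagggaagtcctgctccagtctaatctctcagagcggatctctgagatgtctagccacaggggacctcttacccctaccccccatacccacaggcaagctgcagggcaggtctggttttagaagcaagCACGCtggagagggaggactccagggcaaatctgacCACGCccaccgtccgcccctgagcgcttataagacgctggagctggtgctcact
Slc16a1 held 4 matches, Slc16a3 held 2 and Adm held 2. Of the 35 genes with a promoter in the table, 31 held at least 1 match (88.6%), against 41.5% of all 27025 genes in it. A gene counted if any of its promoters matched, and the 27025 genes were not limited to those detected here, so the sets are unlike. Counted per promoter, a match was present in 81.6% of 49 promoters of the 35 genes and in 38.6% of all 32851. The 4 without a match were Eno2, Gpi1, Tpi1 and Vhl, and no promoter was at hand for Epas1, Slc2a3, Bnip3l and Ndrg1. The 7 genes that were higher at an unadjusted p under 0.05 all held a match in at least 1 promoter. Pfkfb3 and Aldoa, which were lower at that threshold, held a match too, as did 88.6% of the 35 genes. The median log2 fold change was -0.16 over the 31 genes with the letters and 0.11 over the 4 without. A match is a description of the sequence, and 4 genes are too few for a comparison.

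Slc16a1 encodes MCT1, which carries lactate and pyruvate with a proton across the membrane of stromal and blood cells, red cells included. At chr3:104442591-104462385 in mm9, it had 868 and 587 counts in mature and 1842 and 1797 counts in elderly libraries, or 75.1 and 50.6 CPM against 166 and 117 CPM. Both elderly libraries were above both mature ones, with means of 62.9 ± 17.3 CPM and 141.5 ± 34.7 CPM (SD, n = 2). The log2 fold change was 1.17 (SE 0.25, 95% interval 0.64 to 1.70, adjusted p = 0.0285 by edgeR), on 1 annotated transcript that was countable in full and without a repeated window. The call was lost without mature replicate 2, with a log2 fold change of 0.88. It was also lost, as was every other call, without elderly replicate 1 (0.92) and without elderly replicate 2 (1.41). The erythroid markers moved in the same direction: all 13 were higher in both elderly libraries than in both mature ones and 8 were called, with a median log2 fold change of 2.29. Among all genes, 22.0% were higher without overlap and 1.94% were called higher. None of the erythroid markers in the annotation was at 0 in all libraries, and their part in the Slc16a1 difference was not tested.

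Slc16a3 encodes MCT4, the lactate exporter of glycolytic cells. It was counted at 30.1 and 26.2 CPM in mature and 48.0 and 47.5 CPM in elderly libraries. Replicates were close and the ages apart. The log2 fold change was 0.76 (SE 0.22, interval 0.28 to 1.24, adjusted p = 0.120 by edgeR), past the threshold only in the robust fit and with the replicate number as a term. Pdk1, the kinase that shuts pyruvate out of the mitochondrial cycle, had 84 and 43 counts in mature and 151 and 167 in elderly libraries. In CPM this was 7.27 and 3.71 against 13.6 and 10.9, with a log2 fold change of 1.15 (SE 0.36, unadjusted p = 0.00815, adjusted p = 0.172 by edgeR). It ran from 0.72 without mature replicate 2 (adjusted p = 0.588) to 1.72 without mature replicate 1 (adjusted p = 0.0215, both by edgeR).

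Ldha, the enzyme that turns pyruvate into lactate, did not follow the transporters. It stood at 55.03 and 54.6 CPM in mature and 52.6 and 33.8 CPM in elderly libraries, where elderly replicate 2 was the low one. The log2 fold change was -0.35 (SE 0.24, interval -0.87 to 0.18), and 30.3% of its counts were on coding transcripts. Ldhb, the isoform that favours the way back to pyruvate, was under 1.2 CPM in every library over 383 countable bases.

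Of the other HIF targets, Adm was the only one called. It encodes adrenomedullin, which dilates vessels and supports the lymphatic and blood endothelium. At chr7:117771175-117773331 in mm9, Adm had 463 and 496 counts in mature and 1059 and 2280 counts in elderly libraries. In CPM this was 40.1 and 42.8 against 95.5 and 148, with means of 41.4 ± 1.90 and 122 ± 37.4 (SD, n = 2). The lower elderly library was well above both mature ones. The log2 fold change was 1.56 (SE 0.24, 95% interval 1.04 to 2.08, adjusted p = 0.00527 by edgeR), on 1 annotated transcript countable in full, with 1.34% of its windows repeated elsewhere. It was 1.87 without elderly replicate 1 and 1.21 without elderly replicate 2, fits in which the call was lost, as was every other call. Neutrophil markers also rose with age, 8 of 14 called and a median log2 fold change of 1.43. Of the macrophage markers, 4 of 9 were called higher, with 2 others, Cd163 and Fcgr1, at 0. Among all genes 1.94% were called higher. The macrophage markers summed to 3534 and 3311 CPM in mature and 2012 and 3393 CPM in elderly libraries, a sum that includes Vcam1, which stromal cells also express. The part of these cells in the Adm difference was not tested.

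Ndrg1, a stress-responsive gene induced by low oxygen, pointed the other way. Its values were 204 and 149 CPM in mature and 134 and 120 CPM in elderly libraries. The ages were just apart, with a log2 fold change of -0.48 (SE 0.21, interval -0.93 to -0.02, adjusted p = 0.411 by edgeR). The mitophagy receptors Bnip3 and Bnip3l had log2 fold changes of 0.02 each, though 55.1% of the windows of Bnip3 occur elsewhere in the genome. The collagen prolyl hydroxylases P4ha1 and P4ha2 had values of -0.48 and -0.32, and the carbonic anhydrase Car9 and Ankrd37, both below 2.3 CPM in every library, had values of 0.73 and 1.42 with intervals that span 0.

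**Figure D5:**
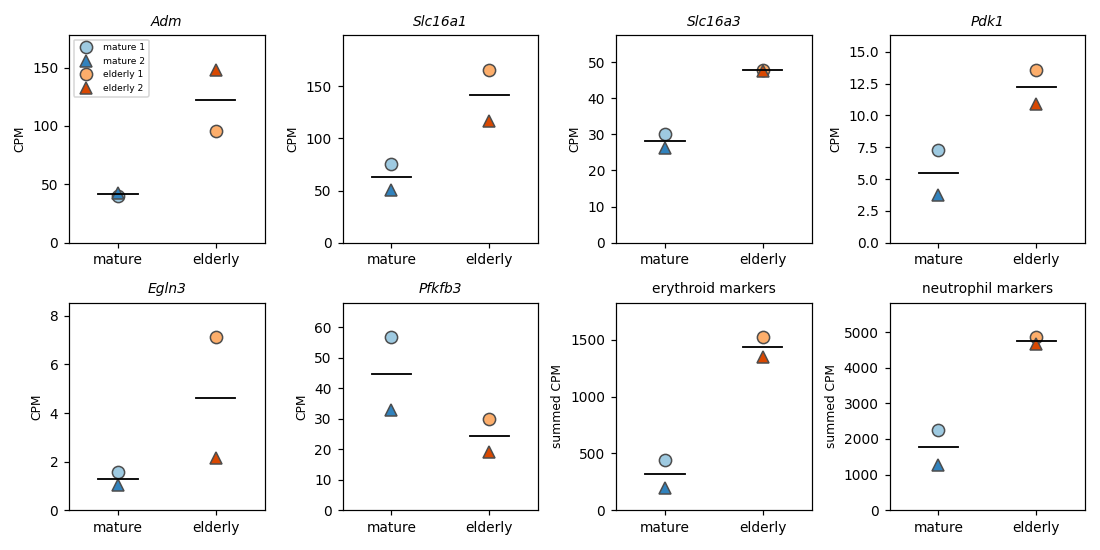
CPM in each library of the 6 genes with the smallest p-values among the 39, and the summed CPM of the erythroid and neutrophil markers, by age; lines are means of the 2 libraries and every axis starts at 0. Adm rises from a mean of 41.4 to 122 CPM and Slc16a1 from 62.9 to 141.5 CPM, and the marker sums are also higher in both elderly libraries.

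In neighbouring pathways the calls were as follows, beside 2.36% of all genes. Of 30 other glycolysis genes 25 were tested and 1 was called (4%), with 4 higher at an unadjusted p under 0.05. The called gene was Bpgm, which makes the bisphosphoglycerate that loosens oxygen from hemoglobin, with 481 and 376 counts in mature and 869 and 1648 in elderly libraries (log2 fold change 1.33, adjusted p = 0.0115 by edgeR). Of 10 pentose phosphate genes 9 were tested, 7 had a higher fitted level in elderly libraries and 1 was called (11.1%), the transketolase Tkt, at 151 and 118 CPM against 262 and 238 CPM (0.89, adjusted p = 0.0368 by edgeR). Bpgm is best known from red cells, whose markers were higher in the same libraries, and their part in the Bpgm difference was not tested. Of 19 genes of pyruvate entry and gluconeogenesis 12 were tested and 0 were called by edgeR, with 0 at an unadjusted p under 0.05. The 15 partners of the oxygen sensors also gave 0 calls by edgeR, with 1 higher and 1 lower at an unadjusted p under 0.05.

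Of 47 further HIF targets outside glycolysis 43 were tested, with 1 called each way and a median log2 fold change of 0.06. At an unadjusted p under 0.05 there were 9 higher and 6 lower (34.9%, beside 10.9% of all genes). The ages did not overlap for 13 higher and 11 lower genes, together 55.8%, beside 40.9% of all genes. Insig1, a sterol-regulated brake on cholesterol synthesis that is also a HIF target, was higher, at 115 and 80.3 CPM in mature and 351 and 426 CPM in elderly libraries (log2 fold change 1.99, adjusted p = 0.00109 by edgeR). Gys1, the glycogen synthase of muscle and other tissues, was lower, at 70.3 and 72.7 CPM against 38.2 and 31.0 CPM (-1.05, adjusted p = 0.0244 by edgeR). In both the ages were clearly apart. HIF targets were thus called in either direction in these libraries, and the share called among these 43, 4.65%, lay beside 2.36% of all genes.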

How the data were processed

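RNA of 4 libraries, 2 per age, was analysed, and ages were taken from the labels. Per the labels, poly(A) RNA was sequenced with a directional kit. The authors trimmed reads (cutadapt), aligned them to mm9 (HISAT2) and counted them (featureCounts), and versions, the strand setting and the treatment of multiply mapped reads are not given in the sources used here. The deposited values are raw counts per Ensembl transcript. They were summed per gene with GENCODE M1 (388 of 95883 transcripts, with 0.0785% to 0.0888% of the counts, had no match), and genes with over 2 counts in all were kept and scaled by TMM (factors 0.9695 to 1.0601). A floor of 3 counts equals 0.195 to 0.270 CPM.

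Ages were compared with edgeR 4.0.16 in R 4.3.3 (quasi-likelihood test, 2-sided, no covariate, Benjamini-Hochberg adjustment over 22214 genes). Fold changes use a prior count of 0.125. Transcript use was tested with edgeR's diffSpliceDGE. Countable bases and repeated 40-base windows were computed from the genome, and promoters were read from RefSeq. Alternatives included DESeq2 1.42.0, which the closing section describes. The tests were checked on simulated counts. The paper used an exact test with a dispersion set to 0.2, run here as an alternative, since the replicates gave a common dispersion of 0.0703.

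Genes with full values are those called, those with an unadjusted p under 0.05, the 5 highest per kb, and Hif1a, Epas1, Vhl, Slc2a1, Pgk1, Ldha and Slc16a3. Genes of other lists are named if called, at most 5 each way, and some genes that meet these rules are not reported here. The members and all lists were chosen with earlier results of these data known. Besides the pathway lists, markers of LEPR+ stromal, erythroid, neutrophil, macrophage, B-lineage, plasma, megakaryocyte, endothelial, T cell, osteoblast, chondrocyte and adipocyte types, proliferation genes and immediate early genes were counted.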

Additional observations from a re-analysis of the deposited data

How the results depend on the processing

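The 2 libraries per age limit every test. Adm and Slc16a1 kept their direction under all alternatives run, and both were called under DESeq2, filterByExpr, no filter, both other scalings, the robust fit, the replicate number as a term, and the restrictions to protein-coding genes, coding transcripts or the highest transcript. The exact test at a dispersion of 0.2 gave adjusted p-values of 0.440 and 0.812 by edgeR. It called 208 genes and 0 of the 39, with 2 of the 39 at an unadjusted p under 0.05. Without a filter 1084 genes and 5 of the 39 were called, and the robust fit called 879 genes. With each library left out in turn, between 0 and 661 genes and between 0 and 3 of the 39 were called by edgeR, and the median of the 39 ran from -0.37 without elderly replicate 1 to 0.14 without mature replicate 1. Without elderly replicate 1 or 2, where the lone library is assumed to vary like the others, 1463 and 1627 genes, 7 and 4 of the 39, had an unadjusted p under 0.05.

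The replicate numbers did not pair the libraries (correlation of deviations 0.0433 over 14398 genes). With the number as a block 1276 genes and 6 of the 39 were called, Adm, Egln3, Pdk1, Pfkfb3, Slc16a1 and Slc16a3.

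Of 287 values of the 18 genes with full values under alternatives, 278 kept their direction. Hif1a turned to 0.23 with coding transcripts only, 0.28 with the highest transcript of each gene and, with 1 library left out, ran from -0.57 without mature replicate 2 to 0.36 without mature replicate 1 (0.06 without elderly replicate 2). Epas1 ran from -0.0854 without mature replicate 2 to 0.28 with another library left out, and was -0.08 without elderly replicate 2. Vhl turned to 0.0057 with library size only, and was -0.25 without elderly replicate 2, 0.0049 without mature replicate 2 and 0.16 without elderly replicate 1. The cause was not tested. 2 alternatives were chosen after the data were seen: the transcript tests and a restriction to the 28 genes with at least 1000 countable bases, whose median log2 fold change was -0.16. Genes with few countable bases, such as Pgk1, Car9 and Pfkm, are limited by their counts.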

Other observations

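Of 8 osteoblast markers 5 had a higher fitted level in elderly libraries, with a median log2 fold change of 0.15, and 1 was called each way by edgeR. Phex was higher (log2 fold change 1.44), and the bone sialoprotein gene Ibsp was lower (-1.41), at 6631 and 5940 CPM in mature and 1450 and 3290 CPM in elderly libraries. Ibsp made up most of the summed level of the list, 6841 and 6161 CPM against 1712 and 3670 CPM. Of 6 chondrocyte markers tested, Acan and Hapln1 were called lower and Col2a1 higher. The proliferation genes summed to 510 and 250.1 CPM in mature and 1307 and 893 CPM in elderly libraries, with 6 of 18 called higher, among them Mki67 and Top2a. Of 4 plasma cell markers tested Igj and Prdm1 were called higher, of 10 B-lineage markers Rag1, and of 7 endothelial markers Flt4, the receptor of lymphatic and sinusoidal endothelium. Beside these lists, 1.94% of all genes were called higher and 0.423% lower.

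The stromal, megakaryocyte, T cell, adipocyte and immediate early lists gave 0 calls by edgeR. At an unadjusted p under 0.05, 4 of 11 stromal markers were lower, and 0 of 7 megakaryocyte and 3 of 7 T cell markers were higher. At that threshold 1 of 3 adipocyte markers moved each way and 1 of 15 immediate early genes was lower, beside 10.9% of all genes in either direction. Other genes of these lists that were at 0 in every library included Cd79b, Tek, Col9a1, Lep and Pck1. Of the 11 LEPR+ stromal markers, 10 had a lower fitted level in elderly libraries and 1 a higher one, with a median log2 fold change of -0.37. Without overlap of the ages 7 were lower, beside 18.9% of all genes, and 1 was higher, beside 22.0%. Lepr itself was counted at 6418 and 5665 CPM in mature and 4121 and 5707 CPM in elderly libraries.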
